A study of Homo sapiens with 6 samples.

Results

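Cadherins are calcium-dependent adhesion proteins of the cell surface, and the genes described here are those whose symbols begin with PCDH, or with CDH, DSC or DSG followed by a digit. Probe sets with a single gene symbol name 14884 genes, called all named genes here, and those with no symbol or several were not counted. Of the 14884, 44 met this rule: 19 PCDHB genes of the clustered protocadherins, 4 delta-1, 5 delta-2 and 4 other protocadherins, 7 desmosomal cadherins, CDH23, CDH26 and 3 antisense transcripts. RefSeq holds 128 symbols that match, and 0 of the classical cadherins of type I or type II, and 0 of the PCDHA and PCDHG genes, were among the 44. CDH1 and CDH2 were therefore not analysed here, and the set is one of protocadherins and desmosomal cadherins. Of the 44, 38 are coding genes and 3 are PCDHB pseudogenes. PCDH11Y lies on the Y chromosome and enters the counts alone. It is counted among the 4 other protocadherins, not with its delta-1 relative PCDH11X.

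The values come from the established human glioblastoma line U-87 MG, with 3 arrays of exposed and 3 of unexposed cells. Exposed cells spent 54 h, from 24 h after seeding, in a culture box within a Faraday chamber under electromagnetic fields (RGFIELDS). The submitters describe these fields as targeting CHI3L1, HSP70, miR-381 and a mutated alpha-kinase 2 gene, which was not tested here. Unexposed dishes stood in a box outside the chamber, in the same gas and at the same temperature, so field and box cannot be told apart. The comparison asks how transcript levels differed after exposure. Each array gives a log2 signal per probe set, normalized by RMA (robust multi-array average). Array medians ran from 3.96 to 3.99. A gene is called dim here when its mean lay under 3.97, the mean of the array medians, in both groups. In these bulk samples, fewer expressing cells and less RNA per cell cannot be told apart.

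Protocadherins are single-pass membrane proteins with cadherin repeats outside the cell and cytoplasmic tails that lack the catenin-binding sites of classical cadherins. Clustered protocadherins stand in tandem arrays in which each gene has its own promoter, and neurons use combinations of them in self-recognition. Delta protocadherins are scattered over the genome and act in cell sorting and in steering the actin cytoskeleton. Desmogleins and desmocollins hold cells together at desmosomes through plakoglobin and desmoplakin.

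In exposed cells PCDH18 rose and PCDH9 fell, and the other 42 members did not pass the threshold, a limma Benjamini-Hochberg adjusted p of 0.05 over all named genes. That is 1 of 44 in each direction, against backgrounds of 1.4% of all named genes called higher and 1.67% called lower (3.06% in all). The median log2 change of the members was 0.02, against 0.00288 over all named genes, with 24 positive and 20 negative values. Exposed and unexposed arrays did not overlap for 10 members (22.7%), against 27% of all named genes. An unadjusted p under 0.05 was reached by 9 members (20.5%), against 18.9%. Of the 9, 6 had positive and 3 negative values, against 8.71% and 10.2% of all named genes. As a set the members thus stood near the background, and the description turns on a few genes. Of the 44, 19 were dim. By limma 0 of all named genes passed (2065 to 2287 at an unadjusted p under 0.05) when replicate 1 or 2 of the exposed cells, or replicate 2 or 3 of the unexposed cells, was left out, so every call given here rests on each of these 4 arrays.

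**Figure D1:**
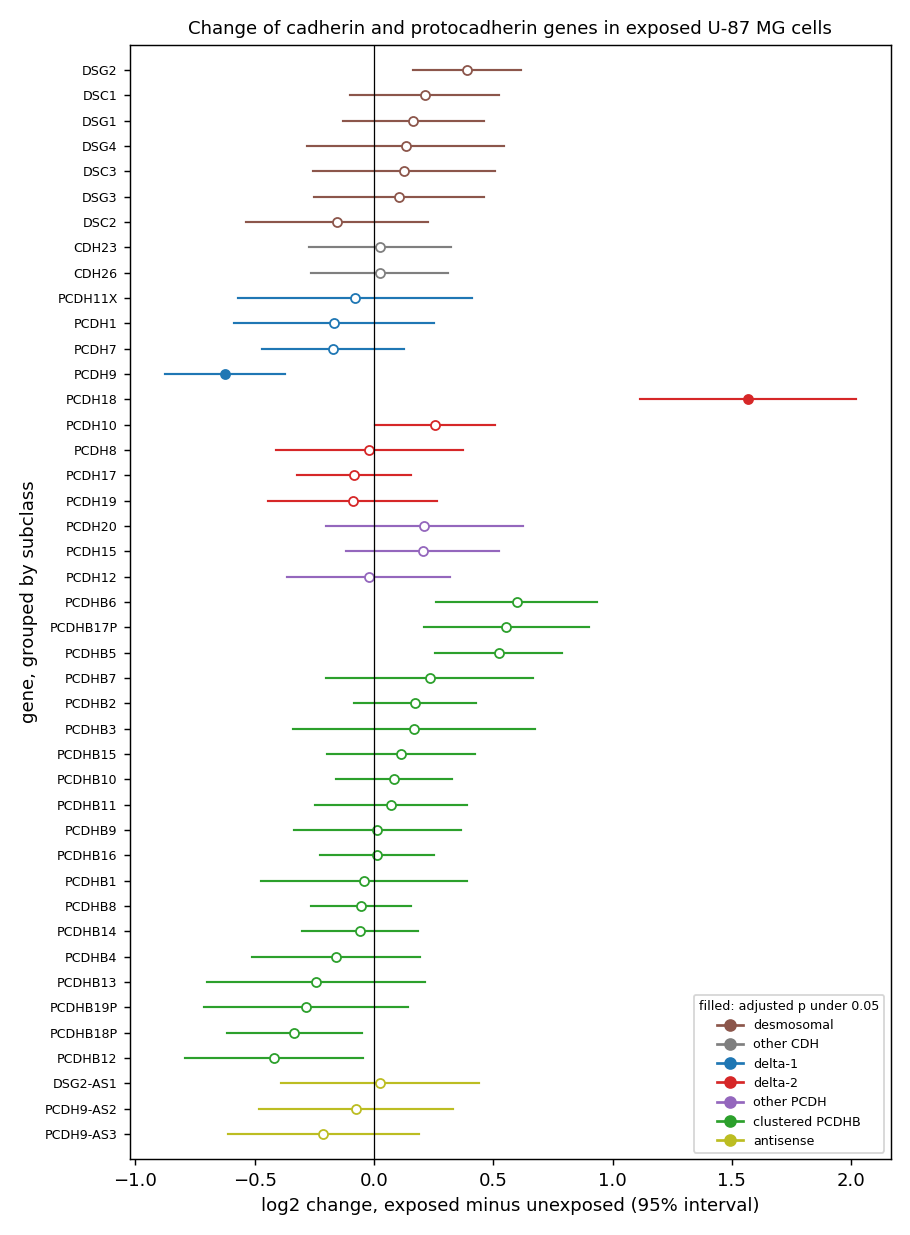
Log2 change, exposed minus unexposed, with its 95% interval for 43 members grouped by subclass (3 arrays per group; filled points passed limma's adjusted p of 0.05). PCDH18 stands apart at 1.57, PCDH9 is the lowest at -0.62, and most intervals include 0.

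PCDH18 belongs to the delta-2 protocadherins and is known to bind the adaptor protein DAB1. Its signal was 8.32, 8.40 and 7.79 on the exposed arrays and 6.57, 6.32 and 6.92 on the unexposed arrays. The groups did not overlap: the lowest exposed array lay above the highest unexposed array. Means were 8.17 ± 0.33 and 6.61 ± 0.30 (SD, n = 3 each). The log2 change was 1.57 (SE 0.20, 95% interval 1.11 to 2.02), or 2.96-fold, with limma adjusted p = 0.0286. This was the highest change of the 44 members and number 2 of all 14884 genes. Leaving out exposed replicate 3 kept the call at 1.76 (limma adjusted p = 0.0278). The call was lost without any other array. The change was then 1.55 without unexposed replicate 1, 1.42 without unexposed replicate 2, 1.73 without unexposed replicate 3, 1.49 without exposed replicate 1 and 1.45 without exposed replicate 2, with limma adjusted p of 0.0523 to 0.120. It was also lost without a mean-variance trend in the fit (limma adjusted p = 0.159), where 0 of all named genes passed and 2220 had an unadjusted p under 0.05.

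The sequence before the start of PCDH18 is shown because this gene had the highest change. RefSeq (GRCh38.p14, minus strand) places it at chr4:137532445-137532744, 250 bases before to 50 after the annotated start, and capitals mark a CCAAT box, here on the opposite strand.
PCDH18: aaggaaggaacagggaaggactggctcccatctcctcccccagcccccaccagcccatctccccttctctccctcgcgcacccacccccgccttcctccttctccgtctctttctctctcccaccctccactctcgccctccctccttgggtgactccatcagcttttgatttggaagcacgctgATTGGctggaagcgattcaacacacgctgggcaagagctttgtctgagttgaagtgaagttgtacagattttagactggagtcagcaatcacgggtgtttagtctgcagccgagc
The letters CCAAT, on either strand, occur in the promoter windows of 39.7% of the 27305 genes in the table, so the match does not set PCDH18 apart. The letters TATAAA (14% of genes) and the E-box CAGGTG (24.1% of genes), a type of site that SNAI factors bind, do not occur in this window.

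The other 4 delta-2 genes did not pass. PCDH10, which links to the actin machinery through the WAVE complex, had signals of 5.11, 4.98 and 5.08 in exposed cells and 4.80, 4.92 and 4.68 in unexposed cells. These groups did not overlap either, but the change was 0.26 (SE 0.11, interval 0.00474 to 0.51, limma adjusted p = 0.256). PCDH17, an adhesion protein of developing synapses, was bright, at 7.23, 7.03 and 6.97 in exposed cells and 7.07, 7.33 and 7.10 in unexposed cells. Its groups overlapped, with a change of -0.08 (interval -0.32 to 0.15), and its further probe set had a change of -0.00585.

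PCDH19, an X-linked gene whose loss causes an epilepsy, was dim at 3.37, 3.37 and 3.23 in exposed cells and 3.18, 3.54 and 3.52 in unexposed cells. PCDH8, which is induced by neuronal activity, was dim as well, at 3.78, 3.25 and 3.41 in exposed cells and 3.44, 3.46 and 3.61 in unexposed cells. Both sets of arrays overlapped, with changes of -0.09 (interval -0.44 to 0.27) and -0.02 (interval -0.41 to 0.37). The upper ends of the intervals of these 4 relatives, 0.15 to 0.51, lay under the lower end of the PCDH18 interval, 1.11. The difference between PCDH18 and the mean of the other 4 on the same array was 3.45, 3.74 and 3.12 in exposed cells. It was 1.95, 1.51 and 2.20 in unexposed cells, without overlap between the groups. As the other 4 changed little, this difference largely restates the PCDH18 change and is no separate support for it.

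**Figure D2:**
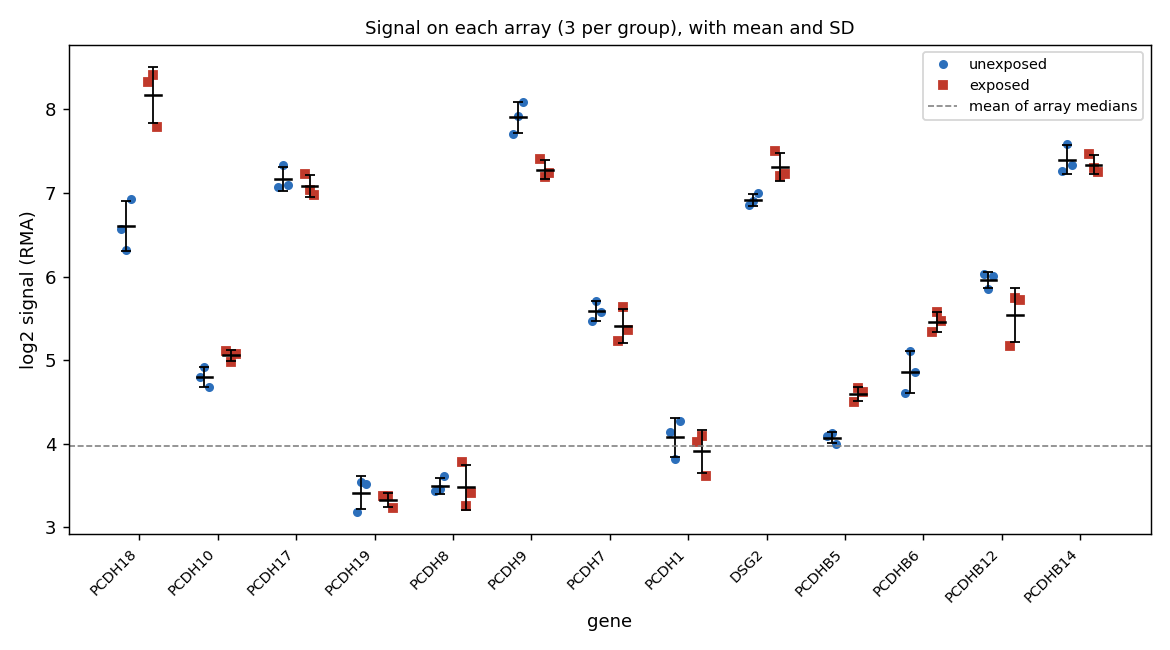
Log2 signal (RMA) on each array, blue circles for unexposed and red squares for exposed cells, with mean and SD (n = 3), and a dashed line at the mean of the array medians. PCDH18 moved from 6.61 to 8.17 and PCDH9 from 7.90 to 7.28, while PCDH17 and PCDHB14 kept overlapping arrays and PCDH19 and PCDH8 lay under the line in both groups.

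By level, PCDH18 was number 2 of the 44 members over all arrays. Signals of different probe sets depend on their probes, so this order is one of array signal, not of transcript number. In unexposed cells PCDH18 was number 5, after PCDH9 (7.90), PCDHB14 (7.40), PCDH17 (7.16) and DSG2 (6.92). Its unexposed arrays overlapped those of its neighbours DSG2 above and PCDHB16 (6.27) below. In exposed cells it was number 1, followed by PCDHB14 (7.34), DSG2 (7.31), PCDH9 (7.28) and PCDH17 (7.08). There its lowest array, at 7.79, lay above the exposed arrays of all other members. Each of PCDHB14, DSG2, PCDH9 and PCDH17 overlapped its neighbour in this order, so neighbours are not resolved. With single arrays left out PCDH18 was number 1 to 3.

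**Figure D3:**
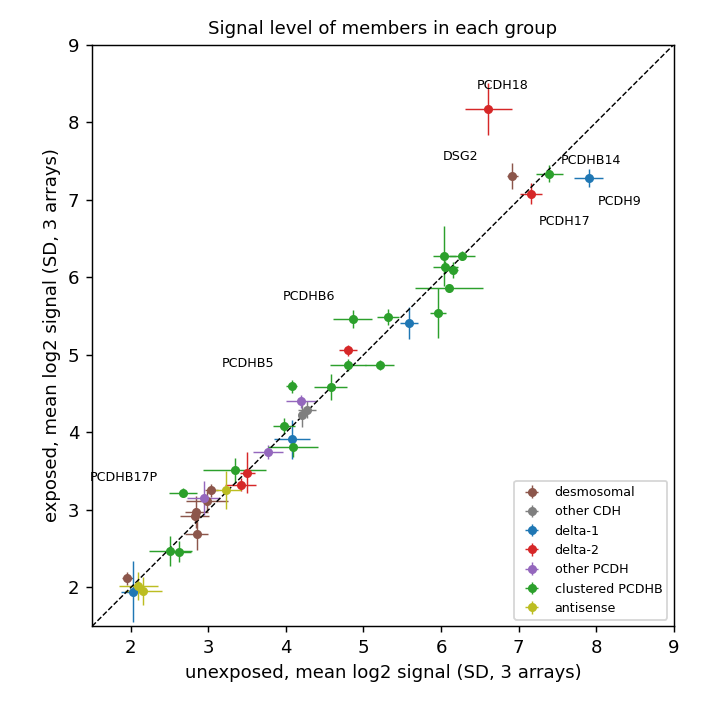
Mean log2 signal of 43 members in exposed (vertical) against unexposed cells (horizontal), with SD over 3 arrays per group, colours by subclass and a dashed line of equality. Most members lie on the line from 2 to 7.4. PCDH18 lies above it at 6.61 and 8.17, and PCDH9 below it at 7.90 and 7.28.

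PCDH9 was the one member that fell. It is a delta-1 protocadherin, a group with a longer tail that can bind a protein phosphatase, and is best known from brain. Its signal was 7.41, 7.18 and 7.24 on the exposed arrays and 7.71, 7.92 and 8.08 on the unexposed arrays. All exposed arrays lay under all unexposed arrays, with means of 7.28 ± 0.12 and 7.90 ± 0.19 (SD, n = 3 each). The log2 change was -0.62 (SE 0.11, 95% interval -0.88 to -0.37), a signal 1.54-fold lower, with limma adjusted p = 0.0336. PCDH9 was the brightest member in unexposed cells and the one with the lowest change.

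The PCDH9 call was kept without unexposed replicate 1 (-0.72, limma adjusted p = 0.0474). It was lost without any other array, where changes ran from -0.69 (exposed replicate 1) to -0.54 (unexposed replicate 3) with limma adjusted p of 0.0673 to 0.123. It was also lost when p-values were adjusted over all probe sets (limma adjusted p = 0.0530) and without a mean-variance trend (0.163). A further PCDH9 probe set was dim, at 1.62 ± 0.10 and 1.65 ± 0.14 (SD, n = 3 each). Its change was -0.02 (interval -0.33 to 0.28). With the mean of both, the PCDH9 change was -0.32 and did not pass. The antisense transcripts PCDH9-AS2 (-0.08) and PCDH9-AS3 (-0.21) were dim in both groups, with arrays that overlapped. It is unknown here whether the array separates the strands at this locus.

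The PCDH9 promoter window, shown as that of the member that fell, lies at chr13:67230287-67230586 (RefSeq, GRCh38.p14, minus strand). Capitals mark a CCAAT box, in the forward direction.
PCDH9: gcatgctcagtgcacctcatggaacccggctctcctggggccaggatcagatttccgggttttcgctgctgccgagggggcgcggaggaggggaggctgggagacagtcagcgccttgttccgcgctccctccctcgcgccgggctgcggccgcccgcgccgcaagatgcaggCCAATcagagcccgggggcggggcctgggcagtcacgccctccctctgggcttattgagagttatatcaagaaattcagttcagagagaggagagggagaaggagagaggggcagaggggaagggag
Its GC content was 65.7%, against 57% for PCDH18 and a median of 58.3% over the genes in the table. TATAAA and CAGGTG do not occur in this window.

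The other 3 genes counted as delta-1 did not pass, and their values were negative too. PCDH7 was at 5.23, 5.64 and 5.37 in exposed cells and 5.47, 5.71 and 5.58 in unexposed cells, with overlap and a change of -0.17 (interval -0.47 to 0.13). PCDH1, known from airway epithelium, had a change of -0.17 at a signal near the array medians. PCDH11X, whose sequence is nearly that of PCDH11Y, was the dimmest of all members, with a change of -0.08.

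The PCDHB genes are single-exon genes in tandem on chromosome 5, and 19 of them, 3 pseudogenes included, were measured. By limma 0 of the 19 passed, while 5 had an unadjusted p under 0.05, 3 higher and 2 lower (26.3%, against 18.9% of all named genes). The median change was 0.01, and 15 of the 19 were not dim. PCDHB genes resemble one another in sequence, so a signal may come in part from a neighbour. The 3 higher ones were PCDHB5, PCDHB6 and the pseudogene PCDHB17P, which lie side by side.

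PCDHB5 was at 4.50, 4.67 and 4.62 in exposed cells and 4.09, 4.13 and 4.00 in unexposed cells, a change of 0.52 (SE 0.11, limma adjusted p = 0.0541). PCDHB6 was at 5.34, 5.58 and 5.46 in exposed cells and 4.61, 5.11 and 4.86 in unexposed cells, a change of 0.60 (SE 0.15, limma adjusted p = 0.0711). PCDHB17P was dim, at 3.22, 3.16 and 3.28 in exposed cells and 2.83, 2.47 and 2.71 in unexposed cells, a change of 0.55 (SE 0.15, limma adjusted p = 0.0910). In all 3 the exposed arrays lay above the unexposed arrays, as for 13.2% of all named genes.

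Farther along the cluster, PCDHB12, PCDHB13, PCDHB14 and the pseudogenes PCDHB18P and PCDHB19P had negative values. PCDHB12 was at 5.17, 5.74 and 5.72 in exposed cells and 6.03, 5.85 and 6.004 in unexposed cells. Its change was -0.42 (SE 0.16, limma adjusted p = 0.211), and -0.23 without exposed replicate 1, the lowest array. PCDHB18P was at 4.89, 4.80 and 4.93 in exposed cells and 5.17, 5.41 and 5.04 in unexposed cells, with a change of -0.33 (SE 0.12, limma adjusted p = 0.193). In both genes the exposed arrays lay under the unexposed arrays, as for 13.8% of all named genes.

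PCDHB14 was the brightest of the cluster. Its arrays overlapped, at 7.46, 7.29 and 7.25 in exposed cells and 7.26, 7.59 and 7.34 in unexposed cells, with a change of -0.06 (interval -0.30 to 0.18). PCDHB16 was next, at 6.34, 6.27 and 6.23 against 6.07, 6.33 and 6.39, with a change of 0.01 (interval -0.23 to 0.25). The remaining 12 genes of the cluster had changes from -0.29 (PCDHB19P) to 0.23 (PCDHB7), all with overlapping arrays. The run of positive values at PCDHB5 to PCDHB7 and that of negative values at PCDHB12 to PCDHB19P were seen in the data and not tested.

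**Figure D4:**
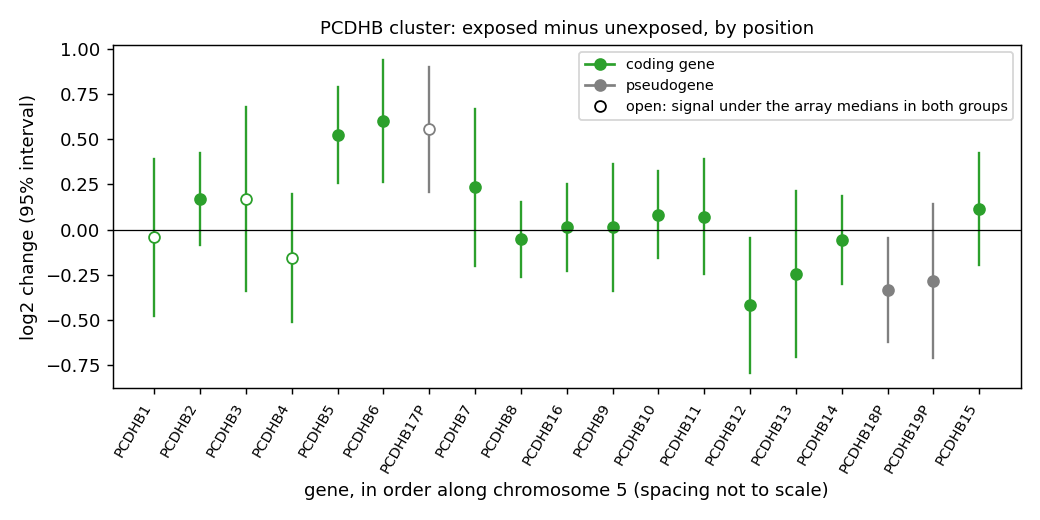
Log2 change with 95% interval for the 19 PCDHB genes in their order along chromosome 5 (green, coding genes; grey, pseudogenes; open points, dim in both groups; 3 arrays per group). The intervals of PCDHB5, PCDHB6 and PCDHB17P lie above 0 and those of PCDHB12 and PCDHB18P below it, and none of the 19 passed the adjusted threshold.

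Promoters of clustered protocadherins are known for a conserved element with the core CGCT, which the insulator protein CTCF binds. A form of it, GGTGGCGCT on either strand, occurs in 13 of the 14 PCDHB promoter windows in the table, PCDHB1 being the exception. It occurs in 0.619% of all 27305 genes and in 0 of the 20 other members with a window. The first letter of the element lay 2 to 84 bases before the annotated start, with a median of 66. Stretches of 40 bases on the plus strand, with the element in capitals, are shown for PCDHB5 (highest change of those with a window), PCDHB7 (next), PCDHB12 (lowest change) and PCDHB14 (brightest). They lie at chr5:141135175-141135214, chr5:141172562-141172601, chr5:141208639-141208678 and chr5:141223259-141223298 (RefSeq, GRCh38.p14).
PCDHB5: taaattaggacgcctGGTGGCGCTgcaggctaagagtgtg
PCDHB7: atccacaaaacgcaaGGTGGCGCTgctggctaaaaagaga
PCDHB12: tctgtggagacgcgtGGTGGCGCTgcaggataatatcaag
PCDHB14: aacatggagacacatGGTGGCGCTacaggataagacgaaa
These genes were found by searching for the letters themselves, so that they share them has no bearing on their changes. CTCF was at 9.32 in exposed cells and 9.31 in unexposed cells, a change of 0.01 (limma adjusted p = 0.944).

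Of the 7 desmosomal cadherins, 0 passed by limma and 1, DSG2, had an unadjusted p under 0.05. DSG2, the desmoglein found most widely in tissues, was at 7.50, 7.20 and 7.23 in exposed cells and 6.85, 6.91 and 6.99 in unexposed cells. The groups did not overlap, and the change was 0.39 (SE 0.10, interval 0.16 to 0.62, limma adjusted p = 0.0758). The other 6 were dim. Of these DSC1, a desmocollin of upper epidermis, had the highest signal, at 3.28, 3.31 and 3.16 against 3.13, 3.01 and 2.98, with a change of 0.21 (interval -0.10 to 0.53) and no overlap between the groups. DSC2, the usual desmocollin outside the epidermis, was at 2.69 ± 0.21 in exposed cells and 2.85 ± 0.15 in unexposed cells (SD, n = 3 each). Desmoplakin (DSP), which ties desmosomes to intermediate filaments, was dim too, at 3.31 in each group, while plakoglobin (JUP) was at 5.59 and 5.41. DSG2-AS1 was dim, with a change of 0.02 (interval -0.39 to 0.44).

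CDH23 and PCDH15 form the tip links of hair cells in the inner ear. CDH23 was at 4.40, 4.09 and 4.19 in exposed cells and 4.15, 4.20 and 4.26 in unexposed cells, with a change of 0.03 (interval -0.27 to 0.32). PCDH15 was at 4.31, 4.40 and 4.48 against 3.97, 4.34 and 4.27, with a change of 0.21 (interval -0.12 to 0.53). Both stood just above the array medians, with overlapping arrays.

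CDH26, a cadherin of epithelia, was at 4.32, 4.39 and 4.18 against 4.37, 4.30 and 4.15, with a change of 0.02 (interval -0.27 to 0.31). PCDH12, a protocadherin of endothelial cells, was dim, at 3.84, 3.67 and 3.72 against 3.90, 3.54 and 3.86, with a change of -0.02. PCDH20 was dim as well, with a change of 0.21 (interval -0.20 to 0.62). Exposed and unexposed arrays overlapped for each of these genes.

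Of 102 entries in 5 lists of partner genes, 73 were measured. FURIN and NCSTN rose and 71 did not pass, 2.74% called against the 3.06% of all named genes. An unadjusted p under 0.05 was reached by 21 of the 73 (28.8%, against 18.9% of all named genes), 10 with positive and 11 with negative changes. Exposed and unexposed arrays did not overlap for 30 of them (41.1%, against 27%). FURIN, a protease that cuts cadherin precursors, was at 8.99, 9.20 and 8.90 in exposed cells and 8.56, 8.31 and 8.63 in unexposed cells. Its change was 0.53 (SE 0.11, limma adjusted p = 0.0455). NCSTN, the gamma-secretase subunit nicastrin, was at 9.44, 9.34 and 9.26 against 9.07, 8.80 and 8.95, a change of 0.41 (SE 0.08, limma adjusted p = 0.0484). Neither group pair overlapped, and both calls were lost whichever array was left out (limma adjusted p 0.0575 to 0.163 over both) and without a mean-variance trend (0.176 and 0.192). The other 12 of 14 processing enzymes did not pass. Of the 14, 2 were called (14.3%), 7 had an unadjusted p under 0.05 (50%, 3 with positive and 4 with negative changes), and 8 had no overlap between the groups (57.1%). The 5 that were not called but had an unadjusted p under 0.05 were the gamma-secretase subunits PSENEN (0.23) and PSEN2 (-0.33) and the cell-surface metalloproteases ADAM9 (-0.22), ADAM15 (-0.21) and ADAM8 (-0.32). ADAM10, the main sheddase of several cadherins, had a change of 0.07. The median level of the 14 processing enzymes was 8.45, with 0 dim, and that of all 73 partner genes was 6.28. Over all named genes it was 5.28. Whether level had a part in the shares given here was not tested.

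Of 24 catenin and junction plaque entries 15 were measured, and the catenins CTNNA1, CTNNB1 and CTNND1 were not among them. Of the 15, 0 passed by limma, with 3 (20%, against 18.9% of all named genes) at an unadjusted p under 0.05. The log2 changes of these 3 were 0.27 for the adhesion protein NECTIN2, 0.16 for PDZD11 and 0.16 for VCL. Among negative changes NECTIN3 (-0.10) had the smallest p and was not one of the 3. Of 14 cadherin superfamily genes outside the rule 0 passed, with 5 (35.7%) at an unadjusted p under 0.05. The giant cadherin FAT4 was at 6.93 against 7.37, a change of -0.44 (limma adjusted p = 0.0510), and FAT1 was at -0.28. The calsyntenins CLSTN2, CLSTN3 and CLSTN1 were at 0.52, 0.32 and 0.19.

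Of 18 entries for cytoplasmic partners and the WAVE complex 8 were measured, and WASF1, WASF2, WASF3 and BRK1 were not among them. Of the 8, 0 passed, with 2 (25%, against 18.9% of all named genes) at an unadjusted p under 0.05, ABI1 (-0.13) and DYRK1A (-0.15). On the positive side the adhesion kinases PTK2 and PTK2B were at 0.14 and 0.13. DAB1, the PCDH18 partner, was dim, at 3.04 in exposed cells and 3.12 in unexposed cells. Of 22 transcription and chromatin regulators 0 passed, with 4 (18.2%) at an unadjusted p under 0.05. SNAI2, a repressor of cadherin genes, was at 11.8 against 11.5, a change of 0.30 (limma adjusted p = 0.0532). SNAI1 was at 0.20 and was not one of the 4. The cohesin subunits SMC3 and RAD21 were at -0.32 (limma adjusted p = 0.0533) and -0.27, and DNMT3B was at -0.36.

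Markers of the labelled cell type were present in part: VIM (10.5 in each group), SOX9 (9.61 in each group), CD44 and CHI3L1 were bright, NES had means of 6.79 (exposed) and 6.87 (unexposed), and S100B, SOX2 and AQP4 were dim. None of the 9 measured glial genes passed by limma, and 2 (22.2%, against 18.9% of all named genes) had an unadjusted p under 0.05. These were GFAP, the intermediate filament of astrocytes, with means of 5.21 (exposed) and 4.86 (unexposed) and a change of 0.35, and S100B, with means of 3.26 and 3.68 and a change of -0.42, both without overlap. Of the 9, 3 had no overlap between the groups (33.3%, against 27% of all named genes). In the mesenchymal list 1 of 5 measured genes rose (20% called, against 3.06% of all named genes), LUM (0.83, limma adjusted p = 0.0287). An unadjusted p under 0.05 was reached by 3 of the 5 (60%), 2 with positive and 1 with negative changes. The list's mean level ran from 6.39 to 6.54 in exposed and from 6.18 to 6.29 in unexposed arrays. This mean is over 5 of 12 listed genes, and LUM had the largest change among them. The other 4 did not pass: TAGLN was at 0.32, the dim DCN at 0.28 and THY1 at 0.03, while FN1, the brightest, was at -0.17 with all exposed arrays under all unexposed arrays. In the neuron list, with 3 of 10 entries measured, 1 of 3 rose (33.3%), MAP2 (0.91, limma adjusted p = 0.0287). STMN2 (0.15) and SYT1 (0.02) did not pass. The list's mean level was 5.23 to 5.34 in exposed and 4.89 to 5.01 in unexposed arrays, a difference that lay mostly in MAP2. No gene passed among 5 oligodendrocyte, 7 endothelial, 4 leukocyte and 9 epithelial markers. Of these only KDR, 1 of the 7 endothelial genes (14.3%), had an unadjusted p under 0.05. Groups did not overlap for 3 of the 4 leukocyte genes (75%, against 27% of all named genes). These were CD68, CSF1R and the dim CD14, all higher in exposed cells. For the oligodendrocyte, endothelial and epithelial genes these shares were 20%, 14.3% and 0%. The part of LUM and MAP2, which moved with PCDH18 and PCDH9 between the same groups, was not tested.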

How the data were processed

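The deposited table holds log2 values per probe set, summarised by the authors with RMA in Affymetrix Expression Console 3.0 and Transcriptome Analysis Console 3.0, per the submitters' processing notes. The sources used here give no further settings and no genome build. The table has no detection calls, and precision is limited by the number of arrays. Groups came from sample titles. The description field calls exposed cells both exposed and control. Replicates are biological ones, per the labels.

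All 53617 probe sets were fitted with limma 3.58.1 in R 4.3.3 (lmFit and eBayes, two-sided, trend by mean level, no covariates and no filter). Probe sets with a single symbol numbered 16098. Each gene was represented by its brightest probe set, by the mean of the 6 arrays, and p-values were adjusted by Benjamini-Hochberg over the 14884 genes. The fit was tested on simulated data. Values in every array are given for members that passed or had an unadjusted p under 0.05, the delta-2 genes and the brightest 2 of each subclass with coding members. Of each partner list, called genes and those with the smallest p in each direction are named. Others (CTCF, DSP, JUP, ADAM10, DAB1, CLSTN2, PSENEN, PSEN2, ADAM8, VCL, DNMT3B, PCDH20) were named after their values were seen. Members, lists and motifs were chosen with earlier results of these data known, and the GGTGGCGCT element after the sequences were read. Promoter windows (RefSeq, GRCh38.p14) matched 34 of 44 members. A gene with several starts counts once for a motif. Whether replicate numbers pair the samples is not known, and the main fit did not use them.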

Additional observations from a re-analysis of the deposited data

How the results depend on the processing

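The signs of PCDH18, PCDH9, PCDHB5, PCDHB6, PCDHB17P, DSG2, PCDH10, PCDHB12, PCDHB18P, FURIN and NCSTN held in every setting that kept the gene, and PCDH18 had the highest change of the members in each. Exposed and unexposed arrays of these genes did not overlap, so leaving out an array could not reverse a sign. The block, trend, level filter, adjustment and representative-only settings leave the change itself as it was, so they could not either. The level filter left out PCDHB17P. The calls did not hold, and where a setting moved a call the cause was not tested. With the replicate number as a block the PCDH18 change stayed at 1.57 with limma adjusted p = 0.127, and 0 members, 0 partner genes and 0 of all genes passed (2286 at an unadjusted p under 0.05, 7 of them members). Same-numbered arrays did not deviate together (correlations of -0.0164, -0.0253 and 0.00964). Differently numbered arrays gave -0.0189 to 0.0350, so the same-numbered ones did not stand out. Deviations from a group's own mean sum to 0 over its few arrays, so these correlations depend on one another. Paired samples need not deviate together, so whether the numbers pair the samples stays unknown. Without a mean-variance trend the same counts were 0, with limma adjusted p = 0.159 for PCDH18 at 1.57 and 2220 genes (9 members) at an unadjusted p under 0.05. Adjusted over all probe sets, 1 member (PCDH18), 0 partner genes and 162 genes passed. With probe sets left out before the fit whose mean lay under the median of all probe-set means, which kept 24 members, 3 members (PCDHB5 added), 5 partner genes and 753 genes passed. With quantile normalization again 4 partner genes passed, with arrays centred on their medians 1. With the mean of a symbol's probe sets 1 member and 1 partner gene passed, and PCDH18 was number 1 by level. A fit on representative probe sets alone, added after seeing the data, called 6 members (DSG2, PCDHB5, PCDHB6 and PCDHB17P added), 7 partner genes and 1209 genes. With each array left out, the counts ran from 0 to 1 for members, stayed at 0 for partner genes and ran from 0 to 325 for all genes, with PCDH18 at 1.42 to 1.76 and number 1 to 3 by level. The members' median change lay between 0.000363 and 0.0407 there. Signs changed with an array left out for CDH23 (-0.0611 to 0.0936), CDH26 (-0.0378 to 0.0818), DSG2-AS1 (-0.0977 to 0.146), PCDH12 (-0.135 to 0.0462), PCDH8 (-0.167 to 0.0944), PCDH9-AS2 (-0.158 to 0.0706), PCDHB14 (-0.126 to 0.0383) and PCDHB16 (-0.0833 to 0.0760). The 19 dim members limit what can be said of their changes.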
